A study of Mus musculus with 4 samples.

Results

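The miRNAs described here are both arms of the miR-139 and miR-582 hairpins, 4 of the 1979 mature miRNAs listed for resting mouse bone marrow–derived macrophages (BMDMs). They were found by name, as mmu-miR-139-5p, mmu-miR-139-3p, mmu-miR-582-5p and mmu-miR-582-3p, and each occupies a single line of the table. The hairpins had been chosen on their levels in these same libraries, namely a high ratio of mutant to wild-type reads, together with their place in phosphodiesterase genes. Their ratios to wild type are therefore given as a description, with no test.

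BMDMs are macrophages grown from bone marrow in macrophage colony–stimulating factor (M-CSF). Marrow came from mice of 6 to 7 months on a mixed 129/B6 background and stayed in culture with M-CSF (10 ng/ml) for 8 to 9 days, the last 16 h in fresh medium without LPS. Small RNA was sequenced in 4 libraries: WT A and WT B from cells with the wild-type mir-146a locus, KO from cells homozygous for a deletion of the mir-146a hairpin, and 3′F from cells homozygous for an allele that keeps the 5′ part of miR-146a and exchanges the 3′ part with the opposite strand of the hairpin. Both alleles were made in embryonic stem cells, by separate targeting, and are present in every cell of the mutant mice. According to the paper, each line was backcrossed to C57BL6/J and bred as a separate colony, so KO and 3′F differ in line as well. The paper does not say from which colony each WT library came. The paper gives the letters A and B as identifiers of biological replicate cultures. The labels name 3 mice per genotype without saying whether a library holds 1 mouse or a pool, so the SD of the WT libraries may not be a spread between animals. mir-146a lies on another chromosome than either hairpin described here.

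A miRNA is cut from a folded precursor, the hairpin, whose arms give the 5p and the 3p product. One arm is usually retained by Argonaute, where its seed (bases 2 to 8) guides it to target mRNAs, while the other arm is mostly degraded. Many hairpins lie in introns of protein-coding genes and are transcribed with them. Cyclic nucleotide phosphodiesterases end signaling by cAMP and cGMP, and cAMP is known to restrain many inflammatory responses of macrophages. PDE2A degrades both messengers and is stimulated by cGMP, and PDE4D is specific for cAMP. miR-139-5p has been studied mainly as a miRNA that is low in solid tumors.

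The mature sequences are shown with the seed in capitals, because the seed defines which mRNAs a miRNA can recognize. They are RefSeq sequences on GRCm38.p6, written 5′ to 3′, and 1679 of the 1979 listed miRNAs had a RefSeq sequence.

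mmu-miR-139-5p: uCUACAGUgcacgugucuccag
mmu-miR-139-3p: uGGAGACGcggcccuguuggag
mmu-miR-582-5p: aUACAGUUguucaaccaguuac
mmu-miR-582-3p: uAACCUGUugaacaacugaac

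The 4 seeds differ, and none of the other miRNAs among these 1679 had any of them. The 5p arms of the hairpins nevertheless overlap in the seed region. They share the 6 bases UACAGU, at bases 3 to 8 of miR-139-5p and at bases 2 to 7 of miR-582-5p. Within bases 1 to 8, this stretch was found in 5 of 1679 listed miRNAs (0.298%), the others being miR-101a-3p, miR-101b-3p and miR-144-3p. They are shown next with the shared stretch in capitals.

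mmu-miR-139-5p: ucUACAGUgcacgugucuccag
mmu-miR-582-5p: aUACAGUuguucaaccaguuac
mmu-miR-101b-3p: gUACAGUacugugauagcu
mmu-miR-101a-3p: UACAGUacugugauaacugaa
mmu-miR-144-3p: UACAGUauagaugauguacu

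Bases 2 to 7 of miR-139-3p also occur in miR-6397 and those of miR-582-3p in miR-490-3p, each of which had 0 counts in all libraries. The arms differ in base composition, with 54.5% G and C in miR-139-5p and 68.2% in miR-139-3p, against 36.4% in miR-582-5p and 38.1% in miR-582-3p.

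In the mouse genome (GRCm38), the miR-139 hairpin, Mir139 (ENSMUSG00000065446.1), occupies 68 nt of chromosome 7 (plus strand, 101475376 to 101475443). Its place is within intron 2 of all 4 protein-coding transcripts that GENCODE vM21 annotates for Pde2a, on the strand of that gene, 23907 bp after the preceding exon and 5927 bp before the next one. A second protein-coding gene model, Gm45837, covers the same place on the same strand. The miR-582 hairpin, Mir582 (ENSMUSG00000076946.2), occupies 81 nt of chromosome 13 (plus strand, 109324744 to 109324824). Pde4d spans 1503514 bp, and only 4 of its 12 protein-coding transcripts run across the hairpin. In these it lies in intron 1, 2 or 3, at least 63798 bp from the exon before it and 415562 bp from the exon after it. Neither hairpin overlapped an exon of the protein-coding host transcripts that run across it. Other transcripts of the hosts and the exons of Gm45837 were not checked.

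**Figure D1:**
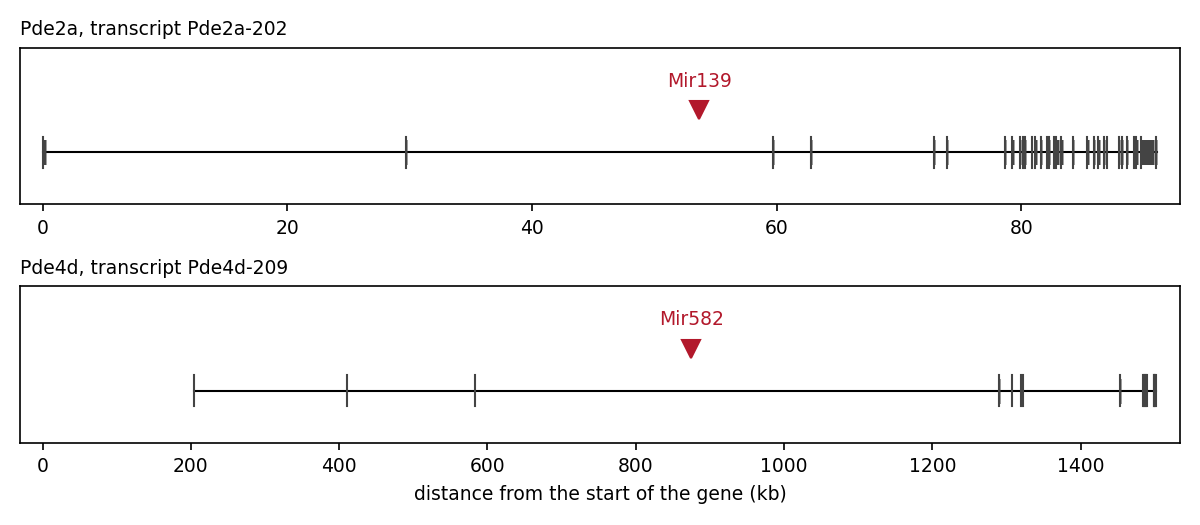
Position of each hairpin in its host gene, as distance in kb from the start of the annotated gene; bars are exons of the spanning transcript with the most exons, and the triangle marks the hairpin. Mir139 lies in intron 2 of Pde2a-202 and Mir582 in intron 3 of Pde4d-209, both far from any exon of the transcript shown.

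The hairpins are printed below with the mature arms in capitals, to show that the arms are each other's partners. RNAfold predicted 19 base pairs between the arms of miR-139 and 16 between those of miR-582, with minimum free energies of -35.6 and -34 kcal/mol.

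mir-139: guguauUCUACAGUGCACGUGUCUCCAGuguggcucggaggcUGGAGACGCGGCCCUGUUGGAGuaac
mir-582: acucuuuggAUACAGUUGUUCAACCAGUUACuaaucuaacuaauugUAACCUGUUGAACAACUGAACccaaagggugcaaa

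The libraries held 17073442 (WT A), 11410940 (WT B), 19087640 (KO) and 16194595 (3′F) counts. Levels are in reads per 1000000 counts of a library (RPM) as deposited. All 16 counts of the 4 miRNAs were whole numbers, whereas between 10.8% and 12.3% of the lines of a library held fractions, so none of their reads had been visibly shared with another line. The paper cautions that sequences differ in how readily they are ligated. Levels therefore compare 1 sequence between libraries better than they compare different sequences. The WT and mutant labels were checked on miR-146a-5p, which was 6252.61 RPM (WT A) and 5485.09 RPM (WT B), against 13.4 RPM (KO) and 6.64 RPM (3′F). It was near 0 in both mutants, so this miRNA separates WT from the mutants and not KO from 3′F. Reads of the altered miR-146a made from the 3′F allele were not analysed here.

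miR-139-5p was the most abundant of the 4 miRNAs and about 2-fold higher in KO than elsewhere. It had 3440 counts (WT A), 2064 (WT B), 7545 (KO) and 3207 (3′F), which are 201, 181, 395 and 198 RPM. The KO library stood above the other libraries, and 3′F lay between the WT libraries, whose own counting intervals did not overlap. Ordered by level, it was miRNA 109 of WT A, 110 of WT B, 108 of 3′F and 88 of KO. 3′F was 0.983-fold WT A and 1.09-fold WT B. KO was 1.96-fold WT A (counting interval 1.88 to 2.04), 2.19-fold WT B (interval 2.08 to 2.30) and 2.00-fold 3′F (interval 1.92 to 2.08). WT was 191 ± 14.6 RPM (SD, n = 2 libraries). These intervals, exact binomial at 95%, and the Wilson intervals of levels cover counting error only, since PCR copies of a molecule are counted as reads and cultures vary too. With 1 KO and 1 3′F library, no difference from WT has a replicate check.

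miR-139-3p, the less abundant arm, showed the largest KO ratio of the 4. It had 416 counts (WT A), 315 (WT B), 1452 (KO) and 419 (3′F), or 24.4, 27.6, 76.1 and 25.9 RPM. The WT and 3′F libraries differed little and their counting intervals overlapped, whereas KO was apart from all of them. KO was 3.12-fold WT A (interval 2.80 to 3.49), 2.76-fold WT B (interval 2.44 to 3.12) and 2.94-fold 3′F (interval 2.64 to 3.29). WT was 26.0 ± 2.29 RPM (SD, n = 2 libraries). Its rank was 194, 196 and 189 for WT A, WT B and 3′F and 136 for KO. 3′F was 1.06-fold WT A (interval 0.925 to 1.22) and 0.937-fold WT B (interval 0.808 to 1.09), so that no difference from WT was detectable in it at this depth.

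miR-582-3p, the main arm of its hairpin, had RPM values close to those of miR-139-3p. It had 491 counts (WT A), 380 (WT B), 1425 (KO) and 450 (3′F), or 28.8, 33.3, 74.7 and 27.8 RPM. KO was again the highest library, and 3′F was the lowest, just under WT A. KO was 2.60-fold WT A (interval 2.34 to 2.88), 2.24-fold WT B (interval 2.00 to 2.52) and 2.69-fold 3′F (interval 2.41 to 2.99). The WT libraries gave 31.0 ± 3.21 RPM (SD, n = 2 libraries). 3′F was 0.966-fold WT A (interval 0.848 to 1.10) and 0.834-fold WT B (interval 0.726 to 0.959), and WT B was itself 1.16-fold WT A.

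miR-582-5p rested on few reads. It had 34 counts (WT A), 19 (WT B), 84 (KO) and 35 (3′F), or 1.99, 1.67, 4.40 and 2.16 RPM, where 3 counts correspond to between 0.157 and 0.263 RPM. The order of the libraries was KO, 3′F, WT A and WT B, but the last 3 could not be told apart at this depth, because their counting intervals overlapped. KO was 2.21-fold WT A (interval 1.47 to 3.40), 2.64-fold WT B (interval 1.59 to 4.61) and 2.04-fold 3′F (interval 1.36 to 3.11). WT was 1.83 ± 0.226 RPM (SD, n = 2 libraries).

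**Figure D2:**
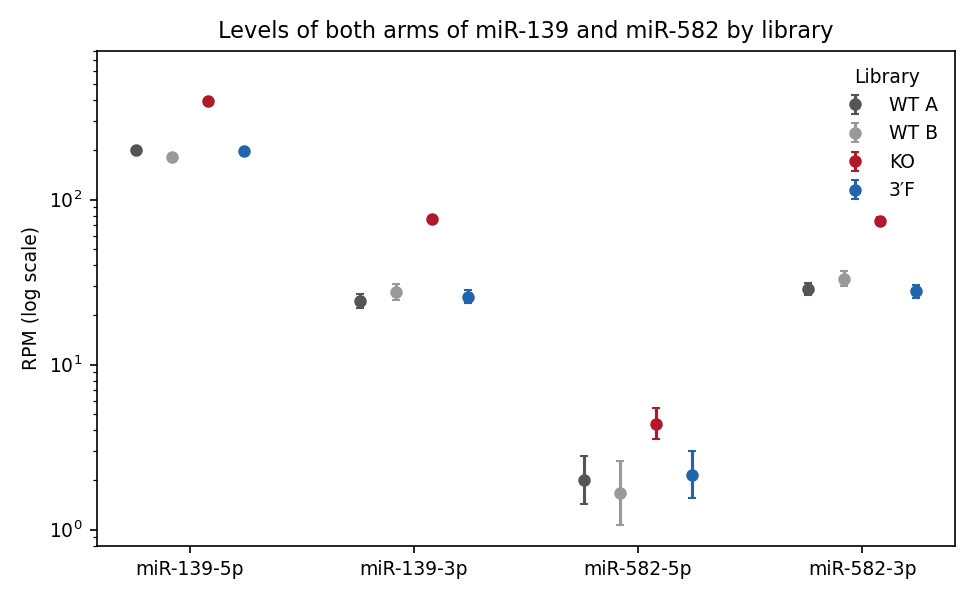
Levels of the 4 miRNAs in RPM (log axis) in each library, with 95% Wilson intervals for counting error as bars. For each miRNA the KO point lies above the WT A, WT B and 3′F points, as for miR-139-3p at 76.1 RPM against 24.4 to 27.6 RPM.

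Each of the 4 miRNAs was thus higher in KO than in every other library. On the log2(RPM + 1) scale, the ratio of KO to mean WT was 1.05 for miR-139-5p, 1.52 for miR-139-3p, 0.93 for miR-582-5p and 1.24 for miR-582-3p. On the same scale the difference of WT B from WT A was -0.15, 0.17, -0.16 and 0.20. The ratio of 3′F to WT was 0.05 for miR-139-5p, -0.0038 for miR-139-3p, 0.16 for miR-582-5p and -0.15 for miR-582-3p. The KO and 3′F ratios use the same WT libraries. The added value of 1 understates the ratio of a miRNA as low as miR-582-5p, and with 0.1 added instead its KO ratio was 1.23.

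To be called expressed, a miRNA had to average 10 RPM or more across the libraries, and 251 did. Of the 4 miRNAs, 3 were expressed, each with at least 10 RPM in every library, and miR-582-5p was not. In KO, miR-139-3p and miR-582-3p exceeded each WT library by a factor of at least 2, in a background where 5 of 251 miRNAs (1.99%) did so. Since this contrast was used to choose the hairpins, nothing is read from that count. In 3′F, none of the 4 met the limit, and neither did any of the 251 (0%). Higher than both WT libraries in KO by any amount were 37.8% of the 251, and 3′F lay between the WT libraries for 33.1%, as for both arms of miR-139. KO was at least 2-fold 3′F for miR-139-3p and miR-582-3p, and for 1.59% of the 251, with miR-139-5p just under that limit at a log2 ratio of 0.99. Between WT A and WT B, 0 of the 251 differed 2-fold.

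miR-139-5p lay at the edge of the limit. Just inside it were miR-100-5p, 2.13-fold above the nearer WT library on the log2(RPM + 1) scale, and miR-582-3p, at 2.21-fold. Just outside it were miR-139-5p, at 1.96-fold, and let-7e-3p, at 1.82-fold. Against WT B alone, miR-139-5p had a log2 ratio of 1.12 and met the limit, and against WT A alone it had 0.97 and did not.

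**Figure D3:**
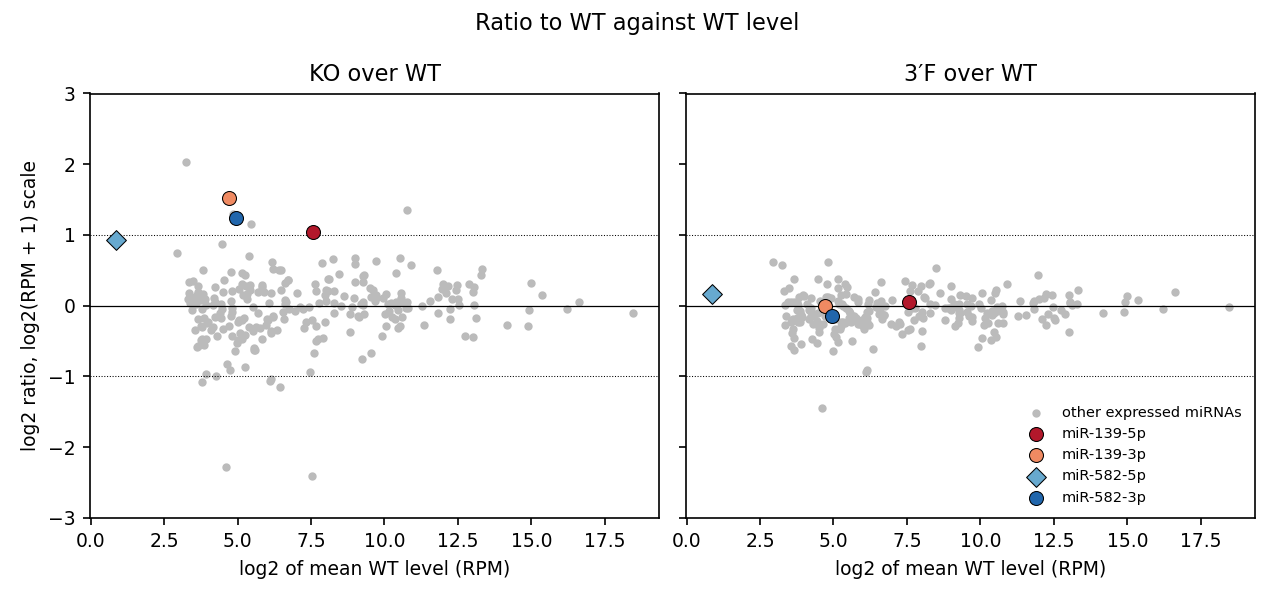
Ratio to the mean of the WT libraries on the log2(RPM + 1) scale against the log2 of the mean WT level, for KO (left) and 3′F (right), with the expressed miRNAs in gray, dotted lines at 2-fold and the 4 miRNAs in color (diamond, miR-582-5p, under 10 RPM). In KO the 4 lie between 0.93 and 1.52, and in 3′F between -0.15 and 0.16; miR-146a-5p lies below both panels.

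The hairpins taken whole were also higher in KO than elsewhere. The summed arms of miR-139 were 226 RPM (WT A), 208 (WT B), 471 (KO) and 224 (3′F), a KO level 2.17-fold the WT mean. The summed arms of miR-582 were 30.8, 35.0, 79.1 and 29.9 RPM in the same order, and KO was 2.41-fold the WT mean. In log2 terms these KO ratios were 1.12 and 1.24, and those of 3′F 0.04 and -0.13. Arms were also counted by ratios of RPM, with no value added. This covered 150 hairpins with at least 20 counts on each arm over the libraries and none at 0. In KO, both arms were at least 2-fold the WT mean for 3 (2%), namely miR-139, miR-582 and miR-146b. On the log2(RPM + 1) scale the KO ratio of miR-582-5p was 0.93, under 2-fold. On that scale miR-139-5p was 1.96-fold the nearer WT library. Because miR-139 and miR-582 were chosen on their KO ratios, nothing is read from this count. In 3′F, both arms were at least 2-fold the WT mean for none of the 150 (0%).

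The hairpins differed in which arm had more reads. In miR-139 the 5p arm took most of the hairpin's counts. Its share was 83.9% in KO (Wilson interval 83.1 to 84.6), 88.4% in 3′F (interval 87.4 to 89.4), 89.2% in WT A (interval 88.2 to 90.2) and 86.8% in WT B (interval 85.3 to 88.1). As a ratio of 5p to 3p reads, this was 8.27 (WT A), 6.55 (WT B), 5.20 (KO) and 7.65 (3′F). The KO library had the lowest share of 5p, outside the interval of each other library, and 3′F lay between the WT libraries. A ratio of arms within a library does not depend on how the libraries are scaled.

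Differences between arms of the size seen for miR-139 were common among hairpins. The log2 ratio of 5p to 3p was 0.50 lower in KO than the WT mean (-0.50), and WT B differed from WT A by -0.34. Of the 150 hairpins, 42% had a lower ratio of 5p to 3p in KO than in both WT libraries, and miR-139 ranked 57 of 150 by the size of the difference. The median size over the 150 was 0.35 for KO and 0.30 between the WT libraries. Against WT B alone the difference for miR-139 was -0.33, and against WT A alone -0.67.

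In miR-582 the 3p arm took nearly all reads. The share of the 5p arm was 5.57% in KO (interval 4.52 to 6.84), 7.22% in 3′F (interval 5.23 to 9.87), 6.48% in WT A (interval 4.67 to 8.91) and 4.76% in WT B (interval 3.07 to 7.32). For each read of 5p there were 14.4 (WT A), 20 (WT B), 17.0 (KO) and 12.9 (3′F) reads of 3p. The 4 intervals overlapped, and KO lay between the WT libraries, as it did for 21.3% of the 150 hairpins. The log2 ratio of the arms of miR-582 in KO differed from the WT mean by 0.0026, and by 0.24 or -0.23 when only WT B or only WT A was used. In 3′F it differed by 0.40 (0.64 or 0.17 in the same order), rank 48 of 150 by size. WT B differed from WT A by -0.47.

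**Figure D4:**
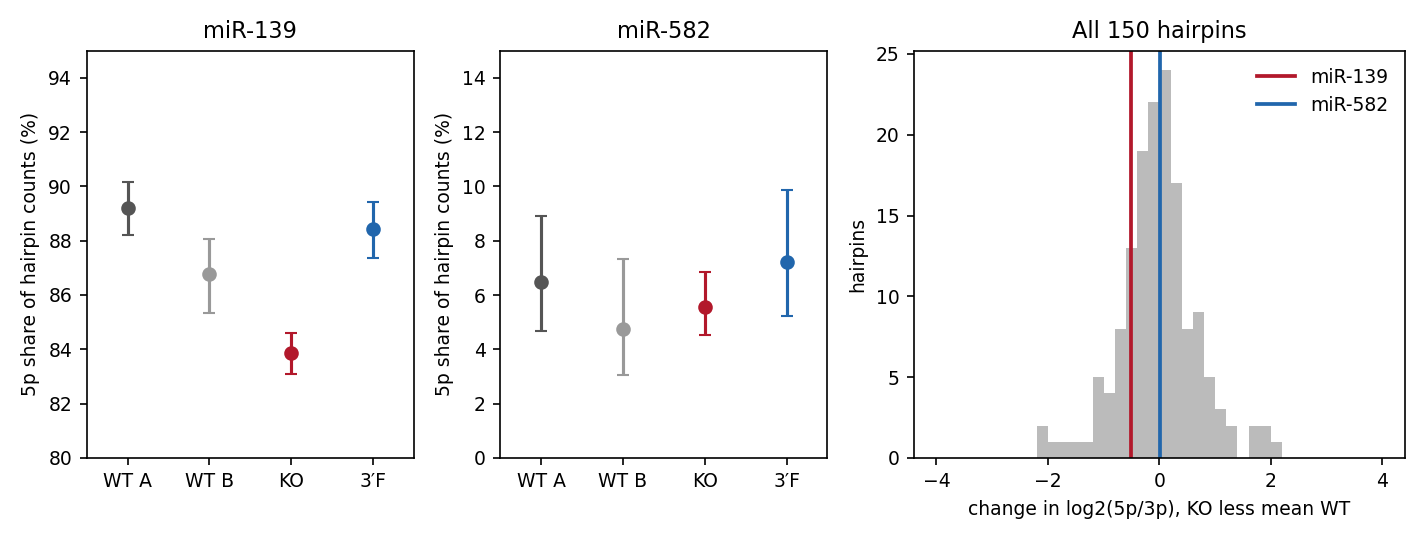
Share of a hairpin's counts on the 5p arm, in percent, for miR-139 (left, axis from 80) and miR-582 (middle) in each library with 95% Wilson intervals, and the change in log2(5p/3p) from WT to KO over 150 hairpins (right). KO has the lowest 5p share of miR-139, 83.9%, while for miR-582 the intervals overlap, and neither line lies at an end of the distribution.

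Within a library, the hairpins can be set against each other without any scaling. The ratio of miR-139-3p to miR-582-3p was 1.02 in KO (interval 0.946 to 1.10), 0.931 in 3′F (interval 0.813 to 1.07), 0.847 in WT A (interval 0.742 to 0.967) and 0.829 in WT B (interval 0.712 to 0.965). The ratio was highest in KO, although its interval overlapped with that of each other library. The ratio of the main arms, miR-139-5p to miR-582-3p, was 7.01 (WT A), 5.43 (WT B), 5.29 (KO) and 7.13 (3′F). Here KO was close to WT B, so that the WT libraries differed from each other nearly as much as KO did from WT A.

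The miRNAs nearest in WT level to the main arms are given beside them. Around miR-139-5p were miR-30b-3p (187 ± 2.76 RPM in WT, SD, n = 2 libraries), miR-34c-5p (187 ± 9.38 RPM) and miR-350-3p (196 ± 34.4 RPM), with log2 ratios in KO of -0.21, -2.40 and -0.66. Around miR-582-3p were miR-18a-5p (31.3 ± 4.19 RPM), miR-132-3p (29.9 ± 0.318 RPM) and miR-7b-5p (32.3 ± 1.39 RPM), with -0.53, -0.64 and -0.48. All 6 had lower KO values than their WT means, whereas over the 251 expressed miRNAs KO was below both WT libraries for 99 and above both for 95. The main arms were chosen on high KO ratios, so nothing is read from their difference from these neighbors.

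The expressed miRNAs most like each arm in pattern were sought by the distance between their log2(RPM + 1) values, each centered on its mean over the 4 libraries. For miR-582-3p the nearest of 250 was miR-146b-5p (distance 0.11), and miR-139-3p came next (0.23). For miR-139-3p the nearest was also miR-146b-5p (0.16), followed by miR-582-3p (0.23). miR-146b, the close relative of miR-146a, was 1558 RPM (WT A), 1916 (WT B), 4410.0 (KO) and 1619 (3′F). For miR-139-5p the nearest was miR-100-5p (0.18), at 45.4, 41.8, 98.1 and 52.5 RPM in the same order, then let-7e-3p (0.38) and, after miR-582-3p, miR-152-3p (0.39). The other arm of its own hairpin, miR-139-3p, took place 13 of 250 (0.49). In the other direction, miR-139-5p took place 3 for miR-139-3p (0.49) and also for miR-582-3p (0.38). Next in order came miR-100-5p (0.49) and miR-298-5p (0.57) for miR-139-3p, and miR-100-5p (0.45) and let-7c-1-3p (0.62) for miR-582-3p. These distances rest on 4 libraries and include the KO values on which the hairpins were chosen, so they are a description only.

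Of the miRNAs that share UACAGU with the 5p arms, miR-101a-3p was 556 RPM (WT A), 472 (WT B), 820.0 (KO) and 623 (3′F), a log2 ratio of 0.68 in KO. miR-101b-3p, which has bases 2 to 7 of miR-582-5p, was 1243 RPM (WT A), 1151 (WT B), 1233 (KO) and 1114 (3′F), a log2 ratio of 0.04 in KO. Both are far more abundant than miR-582-5p. Some of their counts were fractions, which shows that reads were shared with another line. miR-144-3p had at most 7 counts in a library.

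Other miRNAs placed in protein-coding genes were listed for comparison, without a check of whether each lies in an intron or an exon. Of the expressed miRNAs, 228 had a position in RefSeq and 210 of them a single one. In a protein-coding gene on its strand lay 127 of the 210, the 3 expressed arms described here included. Without these 3, the 124 others had a median log2 ratio of -0.03 in KO and -0.09 in 3′F, against 0.0094 and -0.08 over all 251 expressed miRNAs. Past the 2-fold limit in KO were 2 of the 124, against 5 higher and 4 lower among the 251 expressed miRNAs. The 2 of the 124 were miR-146b-5p, in Mfsd13a, which was higher, and miR-504-5p, in Fgf13, which was lower. miR-504-5p was 79.3 RPM (WT A), 94.7 (WT B), 38.6 (KO) and 85.8 (3′F). Higher than both WT libraries in KO by any amount were 39 of the 124, or 31.5%, against 37.8% of all expressed miRNAs, which include the 124. Among the 83 of the 210 that were not in a protein-coding gene on their strand, the share was 47.0%. The median log2 ratio of these 83 was 0.09 in KO and -0.06 in 3′F. The cause of this difference was not tested.

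**Figure D5:**
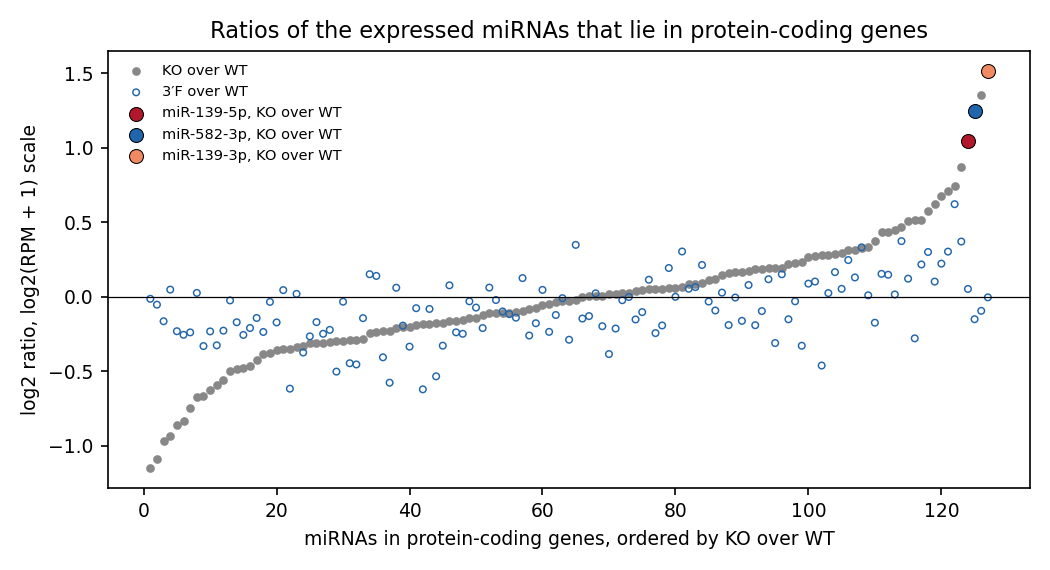
Ratios to WT on the log2(RPM + 1) scale of the 127 expressed miRNAs that lie in protein-coding genes on the same strand, ordered by KO over WT (gray points; open circles, 3′F over WT against the same WT libraries). The 3 expressed arms of miR-139 and miR-582 lie at the upper end in KO, from 1.05 to 1.52, with miR-146b-5p, at 1.35, between miR-582-3p and miR-139-3p.

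Few other listed miRNAs come from phosphodiesterase genes. miR-1904, which lies in Pde4d as well, had 0 counts in all 4 libraries, which allows a level of up to 0.157 RPM in KO, the deepest library, and up to 0.263 RPM in WT B. miR-7225-5p and miR-7225-3p, in Pde4dip, whose product binds PDE4D, were at 0 too. miR-7672-3p, in Pde12, whose product cleaves oligoadenylates and not cyclic nucleotides, had 10 (WT A), 4 (WT B), 11 (KO) and 5 (3′F) counts, and miR-7672-5p had 3, 2, 1 and 1. The mRNAs of Pde2a and Pde4d were not analysed here.

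miRNAs typical of cell types were read beside these results, from lists drawn from general knowledge. In bulk RNA, fewer cells of a type and less RNA per cell cannot be told apart. All 7 macrophage and myeloid miRNAs listed were expressed, led by miR-21a-5p, which took 37.9%, 34.1%, 33.4% and 35.4% of the counts in WT A, WT B, KO and 3′F. The list summed to 388991, 349762, 336771 and 357299 RPM in the same order. In KO, 2 of the 7 were higher and 4 lower than both WT libraries, with a median log2 ratio of -0.11. Over the 251 expressed miRNAs, 95 were higher and 99 lower than both. Among the 4 was miR-146a-5p, whose hairpin is deleted in KO, and it alone passed the 2-fold limit.

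The erythroid list was lower in both mutants. Its 5 miRNAs summed to 171 RPM (WT A), 160.5 (WT B), 70.5 (KO) and 80.7 (3′F). The most abundant was miR-486b-5p, whose reads were partly shared with the listed miR-486a-5p. All 5, of which 3 were expressed, were lower in KO than in both WT libraries, as were 99 of the 251 expressed miRNAs. In KO, miR-451a alone passed the 2-fold limit, at 18.7 (WT A), 30.0 (WT B) and 4.09 RPM (KO). It passed the limit in 3′F as well, at 8.03 RPM, as 2 of the 251 expressed miRNAs did. In 3′F the sum of the erythroid list was nearly as low as in KO. The 5 stromal miRNAs, led by miR-143-3p, summed to 10.5, 10.7, 7.51 and 7.19 RPM, none of them expressed by the limit above, and miR-145a-5p was at 0 counts in KO and 3′F, the only one of the list at 0 in any library. The 3 lymphoid miRNAs, led by miR-181a-5p, summed to 484, 559, 576 and 448 RPM. The 2 endothelial and megakaryocyte miRNAs, led by miR-126a-3p, summed to 11.1, 10.2, 14.0 and 11.1 RPM. Both were higher in KO than in both WT libraries, as were 37.8% of the 251 expressed miRNAs. Of the 2, miR-126a-5p was not expressed by the limit above and had at most 16 counts in a library. The 3 neural miRNAs summed to 905, 1198, 961 and 1021 RPM, nearly all of it miR-128-3p, and miR-124-3p was at 0 in every library. The part of these cell types in the results for miR-139 and miR-582 was not tested.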

How the data were processed

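Small RNA from 4 BMDM libraries was analysed. The authors deposited estimated counts per mature miRNA and precursor, 2129 lines, from reads trimmed with cutadapt 1.8.3 according to the submitters' processing notes, and the RPM values, each count divided by the sum of its library. The aligner, counter and miRNA release are not given in the sources used here. Of several lines for 1 mature miRNA, that with the highest summed count was used. Log2 ratios to WT and the 2-fold limit use differences of log2(RPM + 1). Folds are ratios of RPM unless that scale is named. No test was run, since each mutant genotype has a single library. The functions were tested on simulated data. Library scaling was also taken from edgeR 4.0.16 (TMM) and DESeq2 1.42.0 (size factors on rounded counts), in R 4.3.3. Folding used RNAfold 2.7.2, plots matplotlib 3.10.9, intervals scipy 1.17.1 and tables pandas 2.3.3 (numpy 2.4.6, Python 3.11.15).

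Positions and sequences come from RefSeq (GRCm38.p6) and GENCODE vM21 (GRCm38). The hairpins, the lists and the limits were chosen with earlier results of these data known. Besides the 4 arms, the miRNAs named were to be those at the edge of the 2-fold limit (2 on each side), the 3 nearest in WT level or in pattern, those sharing a seed, miRNAs in protein-coding genes past the limit, the most abundant of each marker list, and miR-146a-5p. The miRNAs of other phosphodiesterase genes, those sharing UACAGU outside bases 2 to 7, single markers at 0 and the miR-146b hairpin were named after their values were seen.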

Additional observations from a re-analysis of the deposited data

How the results depend on the processing

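No paired analysis was possible because KO and 3′F have a single library. Both carry the culture letter A, as WT A does, and the sources used here do not say whether these cultures were paired. Under 4 other scalings, an added value of 0.1 RPM and each WT library left out, the log2 ratio in KO ran from 0.97 to 1.12 for miR-139-5p, from 1.43 to 1.60 for miR-139-3p, from 0.85 to 1.23 for miR-582-5p and from 1.14 to 1.35 for miR-582-3p. In 3′F the ratio changed sign among these settings for miR-139-5p (-0.02 to 0.13) and miR-139-3p (-0.09 to 0.08). With 0.1 RPM added, miR-582-5p moved from 0.93 to 1.23, by more than the SD of the WT libraries. Leaving out a WT library cannot move a ratio by that SD, because there are only 2. The scalings moved the median ratio of the expressed miRNAs to between -0.03 and 0.05 in KO and between -0.09 and -0.0019 in 3′F.

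The number of miRNAs at least 2-fold higher in KO, 5, changed to 9 when the minimum was 1 RPM, 1 at 100 RPM, 12 at 1.5-fold and 1 at 3-fold, and was 6 or 7 against a single WT library. The number lower, 4, became 8, 2 and 15 for the first 3 of these, and was 6 or 9 against a single WT library (9 without WT A). In 3′F the number higher, 0, became 1 with a minimum of 1 RPM and 1 at 1.5-fold, and was 0 or 1 against a single WT library (1 without WT B). The number lower, 2, became 1 with 100 RPM, 5 at 1.5-fold and 1 at 3-fold, and was 2 or 4 against a single WT library (4 without WT B). With at least 100 counts on each arm, miR-139 ranked 31 of 106 hairpins by its arm difference in KO, and miR-582 ranked 22 of 106 by that in 3′F. The median KO ratio of the 127 miRNAs in protein-coding genes, -0.03, was 0.02 with DESeq2 size factors and 0.0021 without WT B. The counts of miR-582-5p limit what can be said of its arm ratio. The cause of these changes was not tested.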
